A study of Rattus norvegicus with 6 samples.

Results

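The nuclear genes of respiratory chain complexes III, IV and V were followed in the right ventricle (RV) of rats with Sugen hypoxia (SuHx) pulmonary hypertension. Members were taken by name from the deposited table, as every gene whose name starts with Uqcr, with Cox4, Cox5, Cox6, Cox7 or Cox8, or with Atp5, together with Cyc1 and Cycs. This gave 39 of 12958 named genes, 7 of complex III, 14 of complex IV, 17 of complex V and Cycs, which encodes cytochrome c. RNA of RV tissue from male Sprague-Dawley rats was sequenced in 3 control libraries taken at day 0 and 3 libraries from the decompensated RV of rats 8 weeks into the SuHx model. The model combines SU5416, a blocker of the vascular endothelial growth factor receptor, with a period in low oxygen that had ended before tissue was taken. Labels give no treatment for the controls. Age and the model cannot be told apart, since the 8 weeks lie between the groups. The SuHx libraries are called A, B and C in the order of the table, because their labels do not tie a column to a rat. Sets of 6 values below run control 1, 2 and 3 and then SuHx A, B and C, and are normalised counts unless another unit is named.

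Complex III passes electrons from ubiquinol to cytochrome c, complex IV passes them on to oxygen, and both pump protons across the inner mitochondrial membrane. Complex V, the ATP synthase, lets the protons flow back and makes ATP. Their catalytic cores in complexes III and IV are encoded partly in mitochondrial DNA, whereas the genes described here lie in the nucleus. The heart depends on this chain for nearly all of its ATP, and several complex IV subunits come in a form of heart and muscle beside a form of other tissues.

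Promoter sequences are shown for 5 members, those of the isoform pairs Cox8a and Cox8b and Atp5g2 and Atp5g3, whose ratios separated the groups, and that of Atp5c1, which had the lowest adjusted p of all members. They are RefSeq sequences of the build GRCr8, 250 bases before to 50 after the start of the gene, with matches to searched motifs in capitals. Cox8a lies at chr1:213833574-213833873 on the minus strand, Cox8b at chr1:205408224-205408523 on the minus strand, Atp5g2 (now Atp5mc2) at chr7:135678169-135678468 on the minus strand, Atp5g3 (now Atp5mc3) at chr3:79220615-79220914 on the minus strand and Atp5c1 (now Atp5f1c) at chr17:73333435-73333734 on the plus strand.
Cox8a: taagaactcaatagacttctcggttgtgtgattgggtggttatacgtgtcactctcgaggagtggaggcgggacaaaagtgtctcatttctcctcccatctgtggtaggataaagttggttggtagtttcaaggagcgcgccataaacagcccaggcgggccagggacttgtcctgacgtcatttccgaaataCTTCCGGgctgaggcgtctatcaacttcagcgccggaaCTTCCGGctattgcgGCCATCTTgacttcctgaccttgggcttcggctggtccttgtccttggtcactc
Cox8b: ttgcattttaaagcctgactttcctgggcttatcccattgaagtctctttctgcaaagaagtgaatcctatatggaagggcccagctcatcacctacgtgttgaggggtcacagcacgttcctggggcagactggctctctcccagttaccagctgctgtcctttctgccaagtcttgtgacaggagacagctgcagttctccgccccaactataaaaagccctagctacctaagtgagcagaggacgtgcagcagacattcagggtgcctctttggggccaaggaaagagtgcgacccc
Atp5g2: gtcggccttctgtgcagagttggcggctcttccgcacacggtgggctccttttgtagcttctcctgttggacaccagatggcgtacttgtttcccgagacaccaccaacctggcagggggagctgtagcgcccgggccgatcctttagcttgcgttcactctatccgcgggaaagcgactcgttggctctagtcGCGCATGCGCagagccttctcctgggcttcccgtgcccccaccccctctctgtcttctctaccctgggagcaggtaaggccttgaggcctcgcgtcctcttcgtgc
Atp5g3: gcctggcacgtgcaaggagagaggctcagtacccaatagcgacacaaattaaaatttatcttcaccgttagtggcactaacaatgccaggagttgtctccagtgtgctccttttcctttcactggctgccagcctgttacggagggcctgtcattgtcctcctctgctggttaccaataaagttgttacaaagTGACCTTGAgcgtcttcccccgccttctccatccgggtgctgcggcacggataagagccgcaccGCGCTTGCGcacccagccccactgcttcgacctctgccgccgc
Atp5c1: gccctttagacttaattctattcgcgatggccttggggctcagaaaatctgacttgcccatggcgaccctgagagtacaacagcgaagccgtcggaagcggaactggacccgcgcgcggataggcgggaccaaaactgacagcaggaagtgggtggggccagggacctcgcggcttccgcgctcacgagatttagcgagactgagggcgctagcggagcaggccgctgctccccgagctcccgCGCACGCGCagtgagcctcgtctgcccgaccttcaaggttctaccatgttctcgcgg

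The motifs were searched on both strands, and a match describes letters only, not a bound site. They were GCGCNTGCG for NRF1, CCGGAAG for GABP and other ETS factors, AAGATGGC for YY1 and TNAAGGTCA for the oestrogen-related receptors (ERR), all regulators known for respiratory chain genes. Of 39 members, 22 matched a current and 17 a former RefSeq symbol, and 32 had a promoter of 300 bases. The NRF1 motif was in 10 of these 32 (31.2%), against 6.34% of 27457 promoters of all genes. By complex it was in 7 of 15 promoters of complex V, 1 of 11 of complex IV and 1 of 5 of complex III, and in that of Cycs. The ETS motif was in 11 of 32 (34.4%, against 9.22% of all), the YY1 motif in 6 (18.8%, against 3.44%) and the ERR motif in 1, Atp5g3 (1.15% of all). Thus 13 of the 32 held none of the 4 motifs in this window. Promoters of all genes were not matched to the members for G and C content. The median content was 52.3% over all genes, and the promoters shown ran from 52.7% (Cox8b) to 62.7% (Atp5c1). The partners differed, with 2 ETS matches and 1 YY1 match in Cox8a and none of the 4 motifs in Cox8b. Atp5g2 held 2 overlapping NRF1 matches on the opposite strands of 1 site, and Atp5g3 held 1 NRF1 match and the ERR match. In Atp5c1 the NRF1 match began 7 bases before the start.

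The libraries were not alike in ways that touch these genes. Normalised counts summed to 11608200 to 12393700 in control and 12754700 to 18249600 in SuHx. Transcripts encoded in mitochondria made up 51.9% to 56.5% of the total in control and 54.7% to 67.2% in SuHx. To gauge RNA quality, genes of long transcripts were set against those of cytosolic ribosomal proteins, and stood at -0.096, -0.098 and -0.74 log2 units in the controls and reached 0.038, 0.48 and 0.57 in SuHx. The ribosomal protein genes thus stood highest against the long ones in control 3, and the part of this in the values below was not tested. Of 15 long genes tested, 8 were higher and 1 lower in SuHx at an unadjusted p under 0.05 from limma. Utrn among them was called higher (log2 fold change 2.89, adjusted p = 0.028 from limma). RNA quality and a difference of these genes between the groups cannot be told apart in this measure. The 6 markers of atrial cardiomyocytes summed to 53826 in control 1 against 2265 and 1262 in controls 2 and 3, and to 16984 to 19424 in SuHx. Of the SuHx sums 15462 to 17508 came from Nppa, which encodes atrial natriuretic peptide and is also made by strained ventricles, and most of the rest from Dkk3. In SuHx the atrial myosin light chain genes Myl7 and Myl4 were at 0 to 6.90 and 41.0 to 58.1, Sln was at 0 to 7.17 and Bmp10 was listed at 0, whereas control 1 held 1353, 9629, 560.4 and 2363 of these 4 genes. Ventricular markers were high throughout, with sums of 692304 to 863267 in control and 602990 to 725082 in SuHx. In bulk tissue, fewer cardiomyocytes and less RNA per cardiomyocyte cannot be told apart. Separate rats behind the libraries are not stated in the labels, and p-values therefore rest on a spread between libraries that may be technical.

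No member differed between SuHx and control RV at an adjusted p under 0.05, and most lay somewhat lower in SuHx. The comparison was made with limma on log2(normalised count + 1) over 10725 genes whose mean was 10 or more, of which 238 (2.22%) were called, 166 higher and 72 lower (0.671%). With every library set to the same total, 90 were higher and 191 lower, and all genes together had a median log2 fold change of -0.31. Of 39 members 38 were tested. Cox6b2, known as a testis form, was left out, at 1.04 to 4.38 in control and 3.81 to 7.90 in SuHx. The log2 fold change of 33 of 38 members was below 0, a share of 86.8% beside 49.1% of all tested genes. The median was -0.28, beside 0.0095 for all genes, and the range ran from -0.87 for Cox8b to 0.21 for Cox6a2. An unadjusted p under 0.05 was reached by 6 members, all of them lower (15.8%, beside 7.59% of all genes). These were Atp5c1, Cox8b, Atp5g3, Atp5g1, Atp5e and Cox5a. In 8 members, 21.1% beside 11.6% of all genes, every SuHx library lay below every control, and in 0 members every SuHx library lay above. The 95% interval of the log2 fold change lay between -1 and 1 for 32 of the 38, so a change of 2-fold or more was outside the interval for those members. With each library left out in turn, again no member was called. The median came to -0.40 without control 1 and to -0.14 without control 3.

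**Figure D1:**
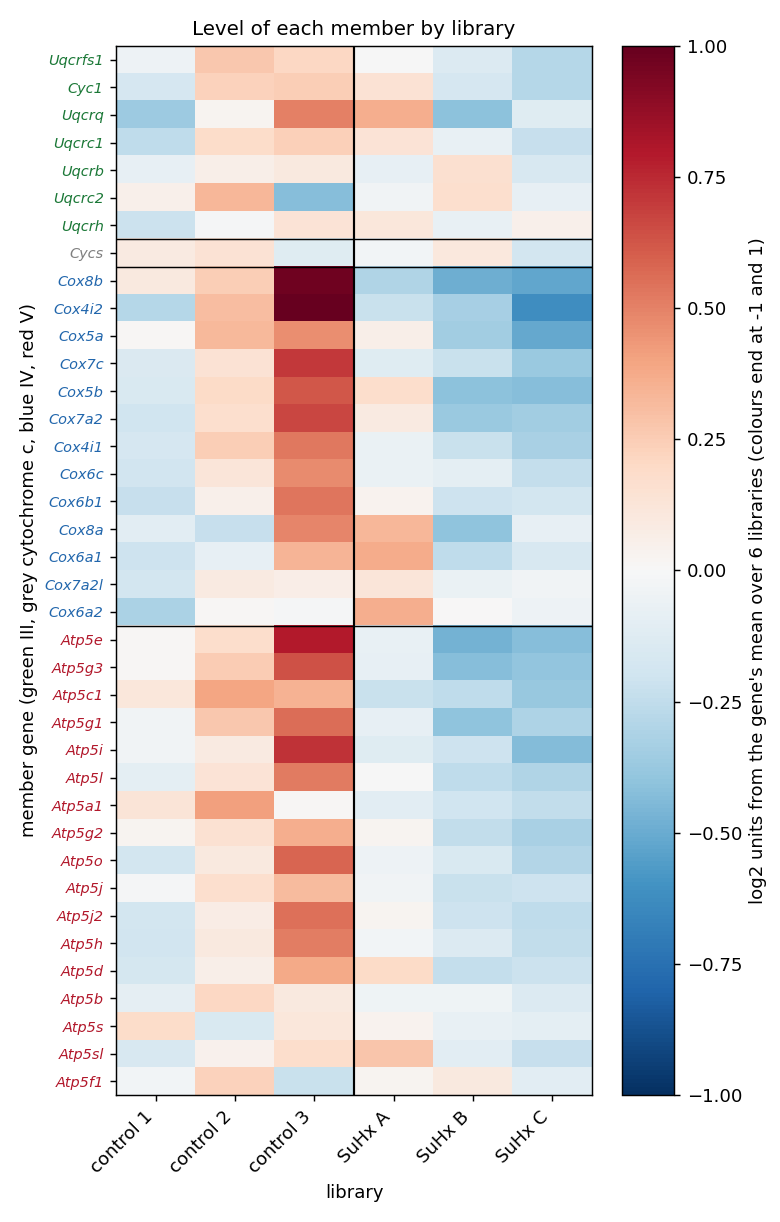
Level of the 38 tested members in each of the 6 libraries, as log2 units from the mean of that gene over all libraries, where red is above and blue below the mean and colours end at -1 and 1. Control 3 is the highest library for 25 members and SuHx C the lowest for 21.

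The members were not high or low in every library of a group. Control 3 was the highest library for 25 of the 38 members and control 2 for 7, whereas SuHx C was the lowest for 21 and SuHx B for 9. Control 1 was the highest for 1 and the lowest for 5. All members together took 3.13%, 3.52% and 3.92% of the normalised counts outside the mitochondrial transcripts in the controls and 2.91%, 2.80% and 2.72% in SuHx A, B and C. The groups did not overlap in this share. Over all 6 libraries the share ran in exactly the reverse order of the RNA quality measure, from control 3 with the highest share to SuHx C with the lowest, although controls 1 and 2 were nearly level in that measure. Many long genes of that measure themselves differed between the groups, and the part of RNA quality in the difference was not tested.

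**Figure D2:**
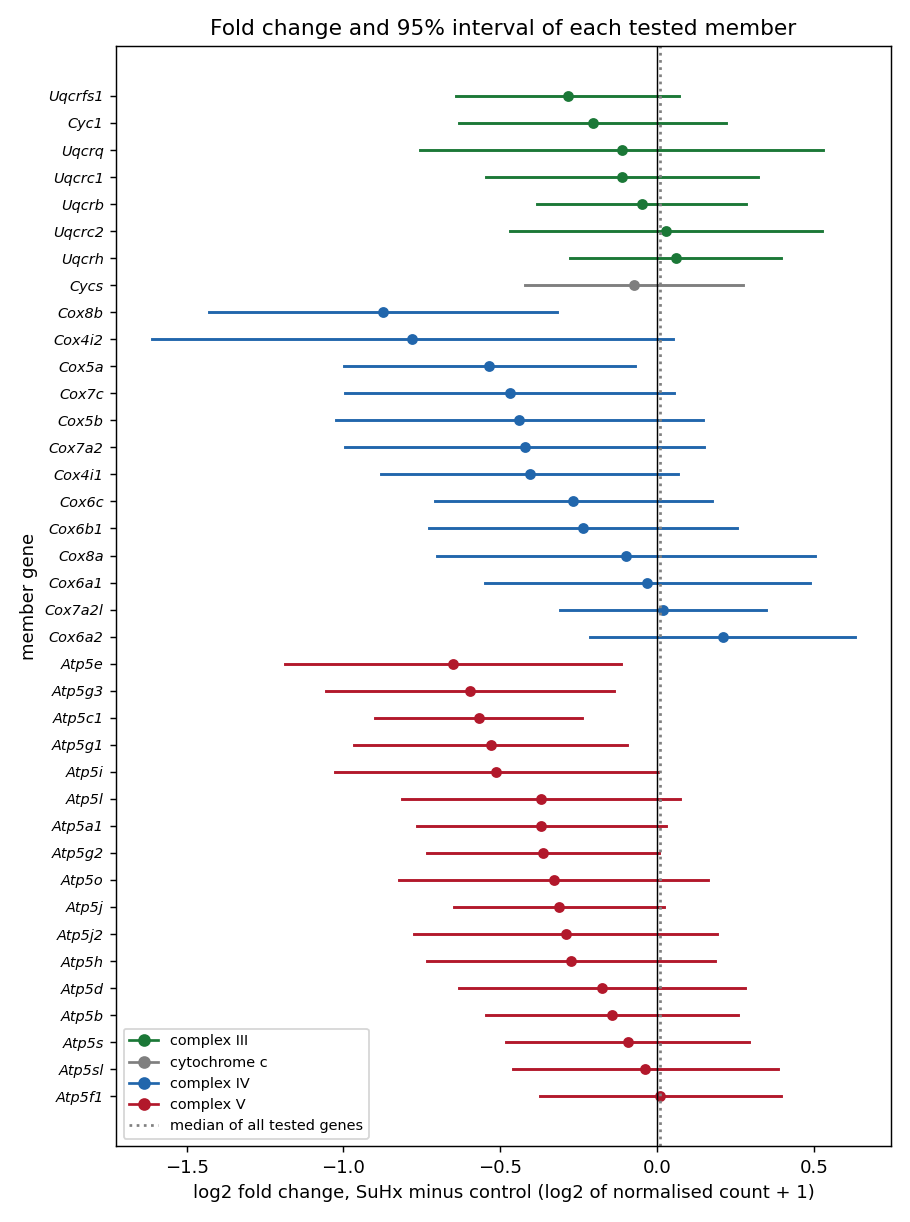
The log2 fold change (SuHx minus control, points) of each tested member with its 95% interval from limma (lines), grouped by complex, with the median of all tested genes dotted. Complex III members lie between -0.29 and 0.06, while members of complexes IV and V reach -0.87 and -0.65.

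Complex III showed the smallest differences. The median log2 fold change of its 7 genes was -0.11, 5 were below 0, none passed the test and none separated the groups. Uqcrfs1 encodes the Rieske iron-sulfur protein, which takes electrons from ubiquinol. It read 3973, 4948 and 4740 in the control libraries against 4098, 3729 and 3371 in the SuHx libraries. This was the lowest fold change of the complex (log2 -0.29, standard error 0.15, adjusted p = 0.39 from limma), and SuHx A lay above control 1. Cyc1 encodes cytochrome c1, which hands the electron to cytochrome c. Its values were 3751, 4929 and 4976 against 4655, 3736 and 3446 (log2 fold change -0.21, adjusted p = 0.60 from limma), so SuHx B and C sat at or below control 1 and SuHx A among the controls. Uqcrc1 and Uqcrc2 encode the core proteins, which hold the complex together on the matrix side. Uqcrc1 was found at 4937, 6696 and 6962 against 6464, 5605 and 5021 (log2 fold change -0.11). Uqcrc2 was found at 8600, 10444 and 6201 against 8094, 9315 and 7836 (log2 fold change 0.028, 95% interval -0.47 to 0.53). For both, the control libraries alone spanned the whole SuHx range. Control 3 was the highest library for Uqcrc1 and the lowest for Uqcrc2. The small subunit gene Uqcrq had a log2 fold change of -0.11, Uqcrb one of -0.049 and Uqcrh, which encodes the hinge protein, one of 0.058, the highest of the complex. Uqcrh measured 1784, 2058 and 2276 against 2236, 1970 and 2141, with SuHx wholly inside the controls.

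Cycs, the mobile carrier between complexes III and IV, differed by less than the spread between libraries. It stood at 5424, 5618 and 4674 in control and 4982, 5476 and 4478 in SuHx (log2 fold change -0.074, standard error 0.15, adjusted p = 0.83 from limma), with a 95% interval of -0.42 to 0.27.

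Complex IV genes differed from one another more than those of complex III. Their median log2 fold change was -0.41 over 13 tested genes, of which 11 were below 0, 2 had an unadjusted p under 0.05 and 1 separated the groups. Cox5a, a subunit of the matrix side, read 1844, 2295 and 2535 against 1911, 1438 and 1283 (log2 fold change -0.53, standard error 0.20, adjusted p = 0.24 from limma). SuHx B and C lay below every control and SuHx A just above control 1. Cox5b, the zinc-binding subunit, gave 2982, 3780 and 5107 against 3740, 2499 and 2469 (log2 fold change -0.44), with the same order of the SuHx libraries. Cox7c and Cox7a2, small subunits of the membrane part, had log2 fold changes of -0.47 and -0.42, and Cox6c and Cox6b1 had -0.27 and -0.24. In all of these control 3 was the highest library. Cox7a2l, which joins complexes III and IV into supercomplexes and is no regular subunit of complex IV, gave 641, 774 and 761 against 793, 696 and 711 (log2 fold change 0.019, 95% interval -0.31 to 0.35). Without control 3 the median of complex IV was -0.19, and without control 1 it was -0.59.

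Isoform pairs of complex IV could be tested here for subunits 4, 6a and 8, and no ratio within a pair passed the test. Other pairs were not testable. Cox6b2, the partner of Cox6b1, fell under the filter, and Cox7a1, the partner of Cox7a2, and Cox7b were not among the members. Cox8b, the form of subunit 8 found in rodent heart and muscle, had the lowest fold change of all members. Cox8b was measured at 1224, 1356 and 2253 in the control libraries against 928, 815 and 800 in SuHx (log2 fold change -0.87, standard error 0.24, 95% interval -1.43 to -0.32, adjusted p = 0.12 from limma). Every SuHx library lay below every control, and without control 3, the highest, the log2 fold change was -0.61 (adjusted p = 0.052 from limma). With all libraries set to the same total Cox8b passed the test (log2 fold change -1.20, adjusted p = 0.049 from limma). Its partner Cox8a, the form of most other tissues, was measured at 408, 372 and 613 against 553, 330 and 415, and its groups overlapped (log2 fold change -0.099, adjusted p = 0.88 from limma). The log2 ratio of Cox8b to Cox8a was therefore 1.58, 1.86 and 1.88 in control and 0.75, 1.30 and 0.95 in SuHx. The mean ratio differed by -0.78 log2 units, a ratio 0.584 times that of control, and the groups did not overlap (exact permutation p = 0.1, two-sided, the smallest that 3 against 3 allow, adjusted p = 0.24 over 6 pairs). A ratio within a library does not depend on how libraries are scaled. This difference was -0.65 without SuHx A and -0.93 without SuHx B, the extremes over single libraries left out.

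The heart and muscle form Cox6a2 was the highest member by fold change, at 10811, 13519 and 13346 in control and 17268, 13449 and 12947 in SuHx (log2 0.21, standard error 0.18, adjusted p = 0.60 from limma). Only SuHx A exceeded the controls, and scaling to equal totals gave -0.11. Its partner Cox6a1 was found at 835, 909 and 1217 against 1246, 806 and 861 (log2 fold change -0.031). The log2 ratio of Cox6a2 to Cox6a1 was 3.69, 3.89 and 3.45 in control and 3.79, 4.06 and 3.91 in SuHx, with overlapping groups (exact permutation p = 0.2, two-sided). The ratios of heart form to partner thus differed by 0.24 log2 units for subunit 6a and by -0.78 for subunit 8, and these were not tested against each other. Cox4i1, the main form of the subunit that binds ATP, gave 7364, 9815 and 11906 against 7896, 7079 and 6604 (log2 fold change -0.41, adjusted p = 0.36 from limma). Cox4i2, a form linked to oxygen sensing, gave 71.4, 108 and 194 against 74.7, 69.1 and 56.3 (log2 fold change -0.78, standard error 0.35, adjusted p = 0.32 from limma). Control 1 lay within the SuHx range of Cox4i2, and without control 3 the log2 fold change was -0.40. Control 3 also held the highest sums of 5 endothelial markers (4730, against 2599 and 2781 in controls 1 and 2 and 2444 to 3247 in SuHx) and of 3 smooth muscle markers (2243, against 1579 to 2016 elsewhere). Single markers did not all follow the sums. Control 3 was highest for Kdr, Tie1, Egfl7, Cnn1 and Smtn, but control 2 for Cdh5, SuHx C for Cldn5 and SuHx B for Tagln. The part of these cell types in the Cox4i2 values was not tested. The log2 ratio of Cox4i2 to Cox4i1 differed by -0.37, with overlapping groups (exact permutation p = 0.2, two-sided).

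**Figure D3:**
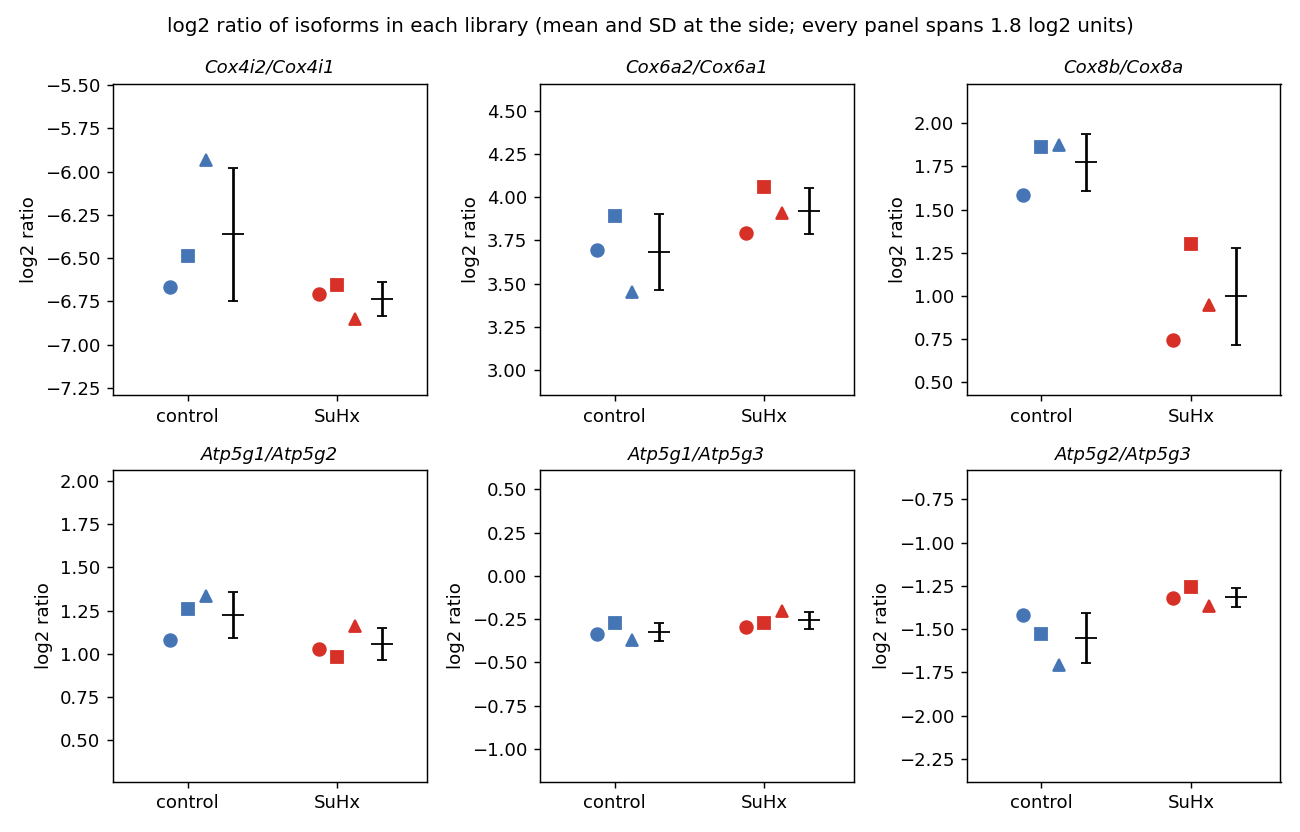
The log2 ratio of 2 isoforms in each control (blue) and SuHx (red) library for 6 pairs, with the mean and SD of each group (n = 3) in black and the same span on every vertical axis. The ratio of Cox8b to Cox8a runs from 1.58 to 1.88 in control and from 0.75 to 1.30 in SuHx, while that of Atp5g1 to Atp5g3 stays between -0.37 and -0.21 in all libraries.

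In complex V every SuHx library lay below every control for 7 of 17 genes (41.2%, beside 11.6% of all tested genes), with a median log2 fold change of -0.33 and 16 values below 0. None passed the test. In the F1 head, where ATP is made, the gene of the gamma chain that turns within it, Atp5c1, came closest. It read 5095, 6186 and 5982 in control against 4044, 3951 and 3621 in SuHx (log2 fold change -0.57, standard error 0.14, 95% interval -0.90 to -0.24, adjusted p = 0.098 from limma). All SuHx libraries lay below all controls, by a gap wider than the spread within SuHx but slightly narrower than that within control. Over single libraries left out the log2 fold change ran from -0.65 to -0.51. The epsilon chain gene Atp5e gave 1682, 1883 and 2890 against 1582, 1200 and 1244 (log2 fold change -0.65, standard error 0.23, adjusted p = 0.22 from limma). Here SuHx A came close to control 1, and the value without control 3 was -0.42. The alpha chain gene Atp5a1 gave 26265, 31938 and 24183 against 22260, 20898 and 20248 (log2 fold change -0.37, adjusted p = 0.32 from limma), again with no overlap. The catalytic beta chain gene Atp5b gave 43508, 53548 and 49615 against 45060, 45016 and 42189 (log2 fold change -0.14, adjusted p = 0.71 from limma), and the delta chain gene Atp5d gave 1771, 2076 and 2604 against 2276, 1697 and 1722 (log2 fold change -0.18). In both the groups overlapped, and differences between the chains were not tested.

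A set of 3 genes encodes subunit c, the protein of the rotor ring, and they differ in the part that directs it into mitochondria. Atp5g3 read 4059, 4786 and 6241 against 3804, 3001 and 3066 (log2 fold change -0.60, standard error 0.20, adjusted p = 0.18 from limma). Atp5g1 read 3214, 3968 and 4835 against 3100, 2482 and 2660 (log2 fold change -0.53, standard error 0.19, adjusted p = 0.21 from limma). In both the SuHx libraries lay below the controls, with SuHx A close under control 1. Atp5g2 read 1521, 1656 and 1913 against 1521, 1254 and 1187 (log2 fold change -0.36, adjusted p = 0.30 from limma), where SuHx A and control 1 were level. The ratio of Atp5g1 to Atp5g3 was nearly the same in all libraries, at -0.37 to -0.21 on the log2 scale, while that of Atp5g2 to Atp5g3 was -1.42, -1.53 and -1.71 in control and -1.32, -1.26 and -1.37 in SuHx. The latter differed by 0.23 log2 units without overlap (exact permutation p = 0.1, two-sided, adjusted p = 0.24 over 6 pairs). That of Atp5g1 to Atp5g2 differed by -0.17 with overlap. Reads shared between these related genes may have been divided among them in the counting.

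In the peripheral stalk, which keeps the head from turning, Atp5j was lower without overlap, at 1982, 2251 and 2486 against 1953, 1712 and 1731 (log2 fold change -0.31, standard error 0.14, adjusted p = 0.32 from limma). Atp5o and Atp5h had log2 fold changes of -0.33 and -0.27. Atp5f1, the subunit b gene of the same stalk, had the highest value of the complex, at 6960, 8325 and 6058 against 7203, 7570 and 6575 (log2 fold change 0.010, 95% interval -0.37 to 0.39). In the membrane part Atp5i gave 849, 927 and 1435 against 800.3, 754 and 644 (log2 fold change -0.51, adjusted p = 0.29 from limma), and Atp5l and Atp5j2 had -0.37 and -0.29. A further 2 genes carry the name but are not structural subunits. Atp5s gave 147, 116 and 139 against 132, 122 and 120.2, and Atp5sl, whose product is linked to complex I assembly, gave 499.8, 576 and 634 against 680.3, 521 and 477. Their log2 fold changes were -0.093 and -0.038. SuHx values of Atp5s lay within the controls, while for Atp5sl SuHx A lay above and SuHx C below every control.

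Set side by side, the medians of the 3 complexes were -0.11, -0.41 and -0.33, and the members with every SuHx library below every control numbered 0 of 7, 1 of 13 (7.69%) and 7 of 17 (41.2%), beside 11.6% of all tested genes. Within each library the median level of complex III relative to the mean of the 6 libraries was -0.16, 0.18 and 0.21 log2 units in control and 0.11, -0.072 and -0.16 in SuHx. For complex IV these values were -0.18, 0.15 and 0.53 against 0.060, -0.26 and -0.32, and for complex V -0.033, 0.15 and 0.38 against -0.035, -0.21 and -0.26. Control 3 was the highest library and SuHx A the highest of its group in all 3 complexes. Control 1 lay below all SuHx libraries in complex III, between SuHx A and B in complex IV and level with SuHx A in complex V. Without control 3 the medians were -0.021, -0.19 and -0.20. Differences between complexes were not tested.

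**Figure D4:**
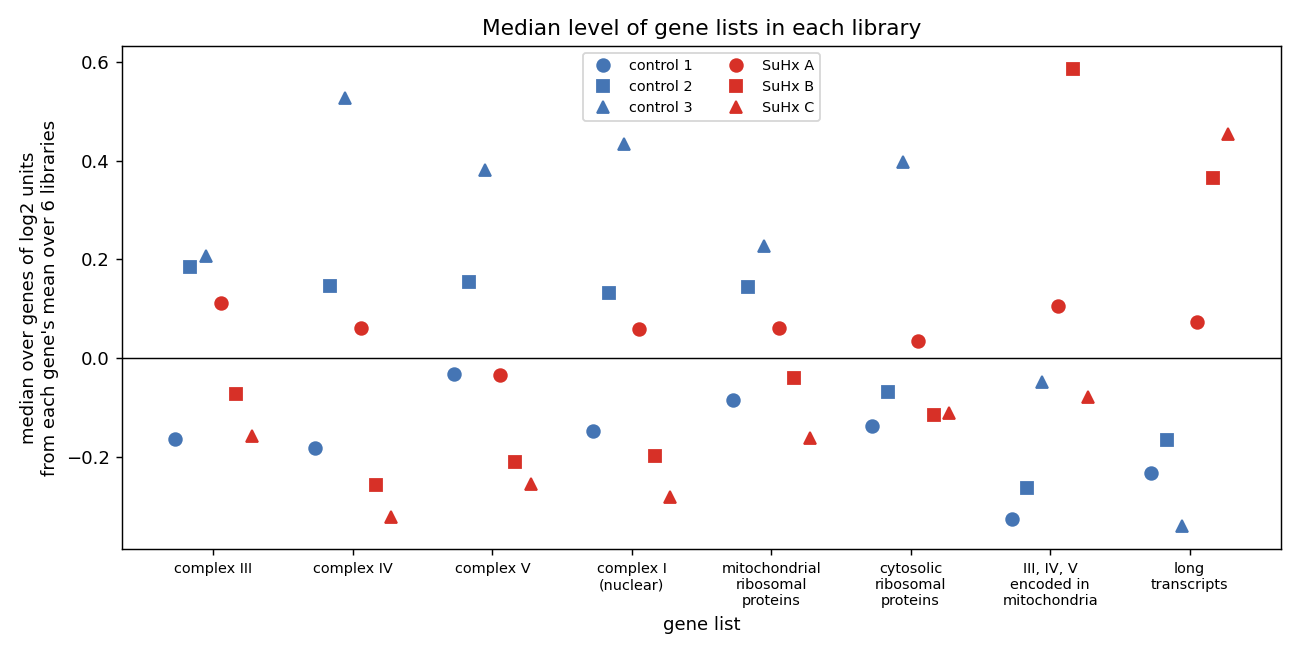
Median level of 8 gene lists in each control (blue) and SuHx (red) library, as log2 units from the mean of each gene over the 6 libraries. Complexes IV, V and I and the cytosolic ribosomal proteins are highest in control 3, while the subunits encoded in mitochondria are highest in SuHx B, at 0.59.

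Other nuclear genes of mitochondria showed part of the same pattern. Of 29 tested nuclear genes of complex I, 27 were below 0 with a median of -0.29, and 1 was called lower, the pseudogene entry Ndufv3-ps1, listed at 213, 126 and 234 in control and at 0, 0 and 17.2 in SuHx. All 4 genes of complex II were below 0 (median -0.12, 0 called). Of 63 mitochondrial ribosomal protein genes 45 were below 0, with a median of -0.11 and 0 called. Short transcripts of another kind, those of 62 cytosolic ribosomal proteins, had a median of -0.13 with 46 below 0 and 0 called. These proteins stood at -0.14, -0.068 and 0.40 log2 units in control and 0.036, -0.12 and -0.11 in SuHx, highest in control 3 as the members were. Every SuHx library lay below every control for 17.2% of complex I, 23.8% of mitochondrial ribosomal and 9.68% of cytosolic ribosomal protein genes. The share was 0 for complex II and 21.1% for the members. In the same 3 lists 13.8%, 19.0% and 8.06% were lower at an unadjusted p under 0.05 from limma, beside 15.8% of the members.

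Transcripts of the same complexes encoded in mitochondrial DNA pointed the other way in the deposited scaling. All 6, Mt-cyb of complex III, Mt-co1, Mt-co2 and Mt-co3 of complex IV and Mt-atp6 and Mt-atp8 of complex V, had log2 fold changes above 0, from 0.30 to 0.54, and none passed the test. Mt-atp8 gave 41132, 39363 and 35466 in control against 44873, 70193 and 55806 in SuHx (log2 fold change 0.54, standard error 0.21, adjusted p = 0.26 from limma), without overlap. Mt-co1, the catalytic subunit of complex IV, gave 1616890, 1962430 and 1998420 against 2310720, 2942260 and 2019270 (log2 fold change 0.37, adjusted p = 0.65 from limma), where SuHx C was barely above control 3. SuHx B was the highest library for each of the 6. As a share of all counts, mitochondrial transcripts were lower in SuHx C (54.7%) than in control 3 (56.5%). The log2 fold changes of the 6 depend on the scaling. With every library set to the same total, the median of all tested genes was -0.31, against 0.0095 here. Of the 6, Mt-cyb (0.30) lay nearer to 0 than that median, while the others stood at 0.37 to 0.54. Values of the 6 at that setting are not given.

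Genes that build or regulate these complexes gave no call either. Of 22 genes listed for complex IV assembly and copper delivery, 12 were below 0 and the median was -0.040. The list also held Ndufa4, a complex IV subunit outside the name rule (log2 fold change -0.23, adjusted p = 0.59 from limma), and its relative Ndufa4l2 (-0.0010). Cox20, which helps to mature the mitochondrial subunit 2, had the lowest adjusted p, at 500.5, 498 and 561 against 392, 334 and 309.9 (log2 fold change -0.59, standard error 0.15, adjusted p = 0.098 from limma), without overlap. Of 5 assembly genes of complex III, 4 were above 0 (median 0.065). Of 5 genes of complex V assembly and inhibition, Atpaf2, a chaperone of the alpha chain, gave 214, 253 and 231 against 323, 329 and 265 (log2 fold change 0.39, adjusted p = 0.27 from limma). Atpif1, the inhibitor of the synthase, was at 714, 786 and 1124 against 1039, 790.0 and 816 (log2 fold change 0.029). Atpaf1 was listed at 0 in all controls and in SuHx B, and at 23.1 and 94.3 in SuHx A and C. Of 17 tested regulators of respiratory chain genes 0 were called and the median was 0.036. Ppargc1a, the coactivator that drives mitochondrial genes, was at 508, 687 and 249 against 416, 637 and 511 (log2 fold change 0.21, adjusted p = 0.80 from limma). Its control 3 was the lowest of the 6 libraries, where most members were highest. Pprc1, a related coactivator, was at 312, 298 and 285 against 394, 366 and 374 (log2 fold change 0.34, adjusted p = 0.25 from limma). Esrra gave 506, 559 and 553 against 552, 455 and 444, and Tfam, which maintains mitochondrial DNA, gave 267, 343 and 258 against 271, 246 and 249, with log2 fold changes of -0.16 and -0.17.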

How the data were processed

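RNA sequencing libraries of the rat RV were used, 3 of controls and 3 of the SuHx model. The authors mapped and counted reads with Salmon 0.14.1, on an index that the paper gives as mouse GRCm38.p6, and deposited a normalised signal per gene and library made with DESeq2 1.24.0. Of values below 12, between 48.3% and 91.4% in a library were whole multiples of 1 step to 0.01, so whole reads were not rebuilt, no count model was run, and no interval for counting error is given. The depth in reads is not given. An unnamed entry, at most 0.00514% of a library, was left out. Values were compared as log2(normalised count + 1) with limma 3.58.1 in R 4.3.3 (mean-variance trend, two-sided, Benjamini-Hochberg) over 10725 genes with a mean of at least 10, in place of the paper's DESeq2 test. Isoform ratios used exact permutation of 3 against 3 libraries. Each error given is a standard error or 95% interval from limma. All members could be named. Values per library are given for isoforms, catalytic and core subunits and the extreme fold changes of each complex. Members, lists and motifs were chosen with earlier results of these data known. Promoters are from RefSeq (GRCr8), with 1 promoter per gene. The procedure was also run on simulated independent libraries, with larger changes than any member showed in the main fit. These lacked the library differences seen here, so that run does not bear on them or on small changes. Alternatives covered pseudocounts of 0.1 and 8, filters, 4 scalings (among them the trimmed mean of M values), moderation, library weights and libraries left out. Uqcr, Cox and Atp5 genes absent from the table are not analysed here.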

Additional observations from a re-analysis of the deposited data

How the results depend on the processing

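Of 684 alternative values of single members, over 18 settings, 645 kept their direction and side of the threshold, 38 changed direction and 1 passed the threshold. At the same total 1 member was called, Cox8b (-1.20), and the medians of complexes III, IV and V were -0.43, -0.73 and -0.65. The median of the members less that of all genes was -0.29 there as in the deposited scaling. A scaling moves the log2 fold changes of all genes nearly alike, so this difference could hardly have moved. At that total the values of Uqcrc2, Uqcrh, Cox7a2l, Cox6a2 and Atp5f1 were -0.29, -0.26, -0.30, -0.11 and -0.31, and at the same total without mitochondrial transcripts those of Uqcrc2, Uqcrh, Cox7a2l and Atp5f1 were -0.072, -0.042, -0.081 and -0.090. With library weights Uqcrc2, Cox8a, Cox6a1 and Atp5f1 had -0.12, 0.020, 0.036 and -0.080. Without controls 1 and 3 together Uqcrc2, Cox8a, Cox6a1, Cox7a2l, Atp5s and Atp5f1 had -0.32, 0.18, 0.068, -0.080, 0.11 and -0.23. With single libraries left out, values that changed direction ranged from -0.034 to 0.14 (Uqcrh), -0.068 to 0.068 (Cox7a2l), -0.33 to 0.11 (Uqcrq), -0.18 to 0.20 (Uqcrc2), -0.29 to 0.12 (Cox8a), -0.22 to 0.13 (Cox6a1), -0.19 to 0.069 (Atp5sl), -0.0995 to 0.13 (Atp5f1), -0.14 to 0.017 (Uqcrb) and -0.15 to 0.00029 (Cycs). Over all genes the counts higher and lower were 90 and 191 at the same total, 83 and 38 with no mean-variance trend, 318 and 183 with library weights, 65 and 6 without controls 1 and 3, and from 13 to 239 and from 7 to 115 with single libraries left out. The cause of these shifts was not tested. The isoform ratios kept their direction throughout. No paired analysis was possible because the columns of the SuHx libraries carry no replicate number. Leaving out Atp5s, Atp5sl and Cox7a2l, which was chosen after seeing the data, gave medians of -0.41 for complex IV and -0.36 for complex V. The depth in reads is unknown.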
